A study of Mus musculus with 8 samples.

Results

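A set of 10 genes that mark the red cell lineage was followed through RNA-seq libraries of sorted mouse leukaemia cells. They were taken by symbol: the transcription factors Gata1 and Klf1, the receptor gene Epor, the haem synthesis gene Alas2, the globin genes Hba-a1 and Hbb-bs, the membrane genes Slc4a1 and Ermap, and the carbonic anhydrase genes Car1 and Car2. All 10 were found among the 27179 rows of the count table through their Entrez identifiers, and 9 of the 10 passed the filter on low counts, which Epor did not.

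The libraries came from 2 groups of mice that carried the same leukaemia and received the same chemotherapy, and differed in diet. In the BCAA-free group (3 libraries) the diet lacked the branched-chain amino acids, and in the AA group (5 libraries) it was a standard amino acid diet. The leukaemia was MLL-AF9 acute myeloid leukaemia, in which a fusion of the Mll gene drives the growth of immature myeloid cells. It carried GFP and luciferase, had been harvested from a single terminally ill mouse and had been grown in culture before an equal number of cells was injected into each recipient. Recipients of both groups were males of 8 to 10 weeks, genotype WT in the labels, and were not conditioned beforehand, so their own marrow cells were still present. All mice received the 5+3 regimen, in which 100 mg/kg of cytarabine is given once a day over 5 days and 3 mg/kg of doxorubicin over days 1 to 3, so the contrast is between diets under treatment and untreated mice were not part of it. Bone marrow was taken at the point of greatest response, red cells were lysed, and live GFP+ cells (7AAD-) were sorted. The labels call the libraries biological replicates and tie none of them to a cage or a day.

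Red cells form from marrow progenitors that switch on GATA1 and KLF1, transcription factors that bind GATA and CACCC sequences in the control regions of globin, haem and membrane genes. The erythropoietin receptor keeps these progenitors alive, and haemoglobin, the anion exchanger and the carbonic anhydrases carry out gas and carbon dioxide transport in the finished cell. Car2 is also made by osteoclasts, and Gata1 by megakaryocytes, mast cells and eosinophils, so neither is limited to the red cell lineage.

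The promoter windows of 4 of the genes are shown, those of both transcription factors, the receptor and a beta globin, to let the short sequences that GATA1 and KLF1 are known to bind be seen in place. Each runs from 250 bases before to 50 bases after the start used for its RefSeq promoter window in GRCm38.p6, read on the strand of the gene. GATA matches (AGATAA or TGATAA) and CACCC matches (CCNCACCC) on either strand are in capitals. The Gata1 window lies at chrX:7967861-7968160 on the minus strand and inside the longer Gata1 gene of GENCODE M21, which has a more distant first exon. The RefSeq gene also spans more, chrX:7959260-7976663, so the window is not at its outermost start. Positions in the Gata1 window count from the inner start. The Klf1 window lies at chr8:84901732-84902031 on the plus strand, the Epor window at chr9:21963527-21963826 on the minus strand, and the Hbb-bs window at chr7:103827879-103828178 on the minus strand.
Gata1: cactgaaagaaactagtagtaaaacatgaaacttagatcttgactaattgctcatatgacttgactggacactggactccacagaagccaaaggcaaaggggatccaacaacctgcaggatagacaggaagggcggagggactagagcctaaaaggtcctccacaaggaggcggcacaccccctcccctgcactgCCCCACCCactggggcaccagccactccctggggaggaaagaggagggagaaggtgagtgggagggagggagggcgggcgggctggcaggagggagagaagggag
Klf1: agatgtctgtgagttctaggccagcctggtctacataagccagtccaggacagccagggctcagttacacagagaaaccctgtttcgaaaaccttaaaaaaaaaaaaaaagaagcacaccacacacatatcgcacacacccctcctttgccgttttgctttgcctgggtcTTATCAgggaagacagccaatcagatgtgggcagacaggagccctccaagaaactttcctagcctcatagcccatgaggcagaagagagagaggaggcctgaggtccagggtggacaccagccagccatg
Epor: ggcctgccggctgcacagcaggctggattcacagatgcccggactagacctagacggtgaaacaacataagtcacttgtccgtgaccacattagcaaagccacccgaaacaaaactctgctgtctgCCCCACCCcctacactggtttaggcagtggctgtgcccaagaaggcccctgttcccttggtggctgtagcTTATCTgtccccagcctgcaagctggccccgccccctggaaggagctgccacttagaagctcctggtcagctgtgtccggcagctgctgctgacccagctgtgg
Hbb-bs: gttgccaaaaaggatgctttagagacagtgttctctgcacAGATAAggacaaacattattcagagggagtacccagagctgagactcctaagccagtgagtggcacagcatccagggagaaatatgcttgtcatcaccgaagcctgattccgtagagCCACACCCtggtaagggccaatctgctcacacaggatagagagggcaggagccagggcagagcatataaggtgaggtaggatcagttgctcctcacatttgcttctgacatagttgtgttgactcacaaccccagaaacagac

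The RefSeq promoter table held windows for 7 of the 10 genes, those shown and Alas2, Hba-a1 and Ermap. Each of the 7 held a match to at least 1 of the motifs. A GATA match was present in 6 of the 7 windows, and in 18.6% of the 32851 windows of the table. A CACCC match was present in 4 of the 7 windows, against 16.6% of all windows, and both stood together in 3 of the 7, against 2.14%. The GATA match began 80 bases upstream of the start in Klf1, 54 bases in Epor and 210 bases in Hbb-bs, and the CACCC match 55 bases upstream in Gata1, 124 bases in Epor and 93 bases in Hbb-bs. The Gata1 window held no GATA match of these letters. These matches describe the sequence and are not evidence of binding.

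Library totals ran from 14851240 to 30306697 counts in the BCAA-free group and from 16588662 to 38966911 in the AA group, and did not differ beyond the spread between libraries (exact permutation test, two-sided p = 0.857). Levels are given as CPM, the counts of a gene relative to the library total, itself scaled by the TMM factor of edgeR. In edgeR's quasi-likelihood test over 13364 genes, 29 genes were higher in the BCAA-free group at an adjusted p under 0.05 and 72 were lower, and the median log2 fold change of all tested genes was 0.015, near 0. Genes of the leukaemia itself set the scale of the libraries: Mpo, the granule enzyme of immature myeloid cells, averaged 6231 ± 636 CPM in the BCAA-free group and 8792 ± 1044 CPM in the AA group (SD, n = 3 and 5), and Elane, neutrophil elastase of the same granules, averaged 1472 ± 315 CPM in the BCAA-free group and 1880 ± 291 CPM in the AA group.

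The erythroid genes were at trace levels. The 10 together made up between 0.00279% and 0.00705% of the counts in the BCAA-free libraries and between 0.00122% and 0.00279% in the AA libraries. Their summed level was 36.8, 27.4 and 67.9 CPM in BCAA-free libraries 1 to 3, against 17.8, 21.3, 12.7, 18.5 and 28.0 CPM in AA libraries 1 to 5. The lowest BCAA-free library thus lay just below AA library 5, and the other two above every AA library. Without the 2 globin genes the sum was 31.4, 24.9 and 40.7 CPM in the BCAA-free libraries and 12.6, 13.1, 11.5, 12.3 and 23.1 CPM in the AA libraries.

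Per length of exon, Hba-a1 had the highest mean level over the 8 libraries, 5.76 ± 6.26 CPM per kb, and 44.3% of tested genes with a length lay below it. Car2 followed at 3.85 ± 1.91 CPM per kb, Hbb-bs at 3.80 ± 4.26 and Car1 at 3.06 ± 2.19. These 4 could not be put in order, since each was above its neighbour in 4 of 8 libraries. Car1 was above the next gene, Alas2 at 0.654 ± 0.320 CPM per kb, in 8 of 8 libraries. Ermap at 0.531, Klf1 at 0.491, Gata1 at 0.425 and Slc4a1 at 0.349 CPM per kb came next, and from Alas2 to Slc4a1 each gene was above its neighbour in 3 to 6 of the 8 libraries. Epor was lowest at 0.0954 ± 0.106 CPM per kb, below Slc4a1 in 7 of 8 libraries, and only 1.39% of tested genes lay below it.

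**Figure D1:**
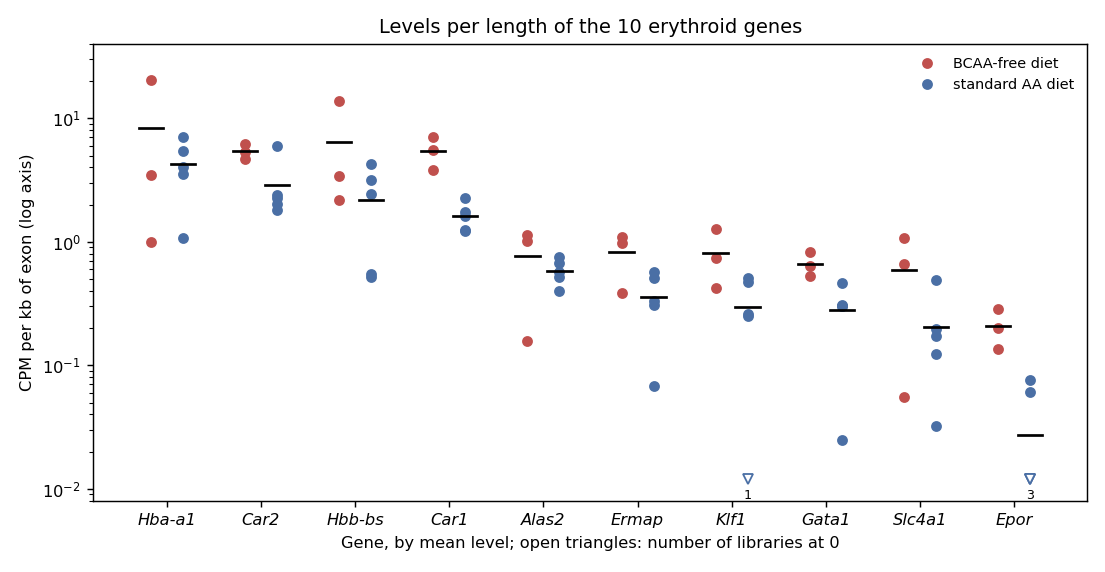
Levels of the 10 erythroid genes in CPM per kb of exon (log axis), 1 point per library, BCAA-free libraries left of AA libraries, genes ordered by mean level. Black bars are group means over all libraries of the group, and open triangles mark libraries at 0 with their number beside them. The globins and carbonic anhydrases sit above the other 6 genes, and Epor has 3 AA libraries at 0.

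In every one of the 10 genes the mean CPM was higher in the BCAA-free group, and 1 of the 9 tested genes, Car1, was called higher, as were 0.217% of all tested genes. None was called lower, where 0.539% of all tested genes were, and 0.756% were called in either direction. All 9 tested genes had a positive log2 fold change, as did 52.6% of all tested genes. Of the 9, 4 (Car1, Car2, Hbb-bs and Ermap) had an unadjusted p under 0.05, against 6.21% of all tested genes in that direction. Among the 9 tested genes the groups did not overlap, with the BCAA-free libraries higher, in Car1 and Gata1, against 4.15% of tested genes. The groups also separated this way in Epor, which lies outside the tested genes. In none of the 10 did the groups separate the other way, where 4.68% of tested genes did. The genes share libraries, and the members were picked with earlier results of these data known, so these counts describe the 10 genes and are no test of them as a group. In bulk RNA of sorted cells, more cells of a type and more RNA per cell cannot be told apart.

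**Figure D2:**
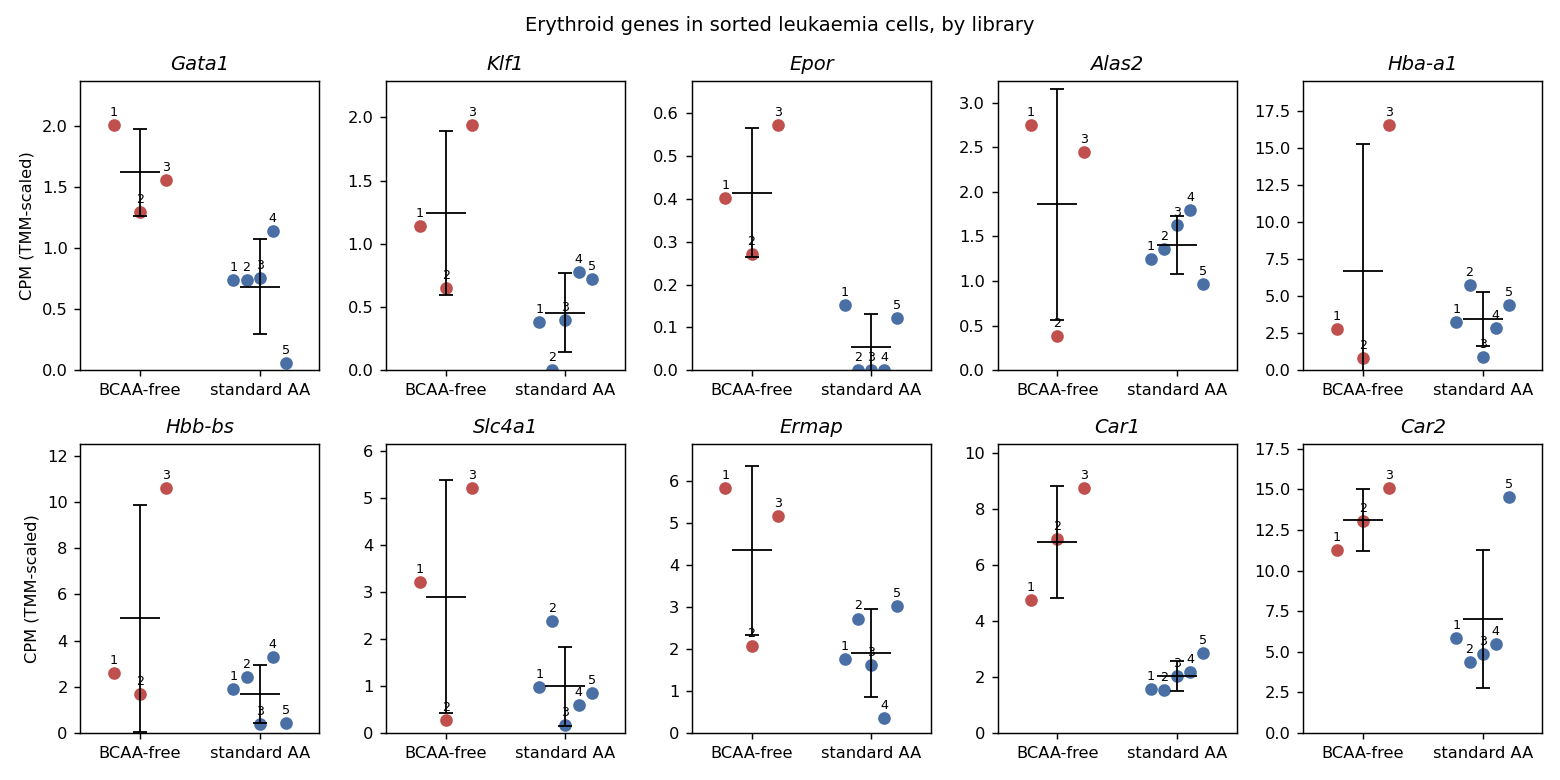
CPM of each erythroid gene, 1 point per library with its replicate number, BCAA-free libraries on the left of each panel and AA libraries on the right. Horizontal lines are group means and error bars are 1 SD, drawn from 0 upward where the SD reaches below 0. Car1, Gata1 and Epor have no overlap between diets, and in both globins BCAA-free library 3 stands far above the other 7 libraries.

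Car1, the cytosolic carbonic anhydrase that is abundant in red cells and their precursors, rose in the BCAA-free group. It had 71, 128 and 275 counts in BCAA-free libraries 1 to 3, which is 4.76, 6.93 and 8.74 CPM, against 61, 27, 51, 36 and 47 counts in AA libraries 1 to 5, which is 1.55, 1.53, 2.02, 2.16 and 2.84 CPM. Every BCAA-free library was above every AA library, and the gap between the nearest values was wider than the whole range of the AA group. The mean was 6.81 ± 2.00 CPM in the BCAA-free group and 2.02 ± 0.536 CPM in the AA group (SD, n = 3 and 5), a fold change of 3.39. The log2 fold change was 1.76 with an SE of 0.33, and the adjusted p was 0.0210 in edgeR's quasi-likelihood test. DESeq2 gave an adjusted p of 0.000186 and limma-voom one of 0.0198 for the same gene, where they called 0.963% and 0.112% of their tested genes higher. The call was lost in edgeR when single libraries were left out: the adjusted p was 0.0711 without BCAA-free library 2, 0.0844 without BCAA-free library 3, 0.0504 without AA library 1 and 0.0551 without AA library 2, while the log2 fold change stayed between 1.53 and 1.96 over the 8 fits that each left out 1 library.

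Car2, the neighbouring carbonic anhydrase gene on chromosome 3, made in red cells and also in osteoclasts, did not pass the threshold. It had 11.3, 13.0 and 15.1 CPM in BCAA-free libraries 1 to 3, against 5.85, 4.37, 4.88, 5.46 and 14.6 CPM in AA libraries 1 to 5. AA libraries 1 to 4 lay below every BCAA-free library, and AA library 5 lay among the BCAA-free libraries. The mean was 13.1 ± 1.92 CPM in the BCAA-free group and 7.02 ± 4.25 CPM in the AA group (SD, n = 3 and 5), with a log2 fold change of 0.91, an SE of 0.33 and an adjusted p of 0.255 in edgeR. Without AA library 5 the log2 fold change was 1.35 and the adjusted p 0.0217 in edgeR. That fit was the only 1 of the 8, each without 1 library, to call Car2. Over these 8 fits the log2 fold change ranged from 0.79 to 1.35 and the adjusted p reached 0.444. The annotated transcripts of Car1 and Car2 shared none of their 38-base stretches, the length of a read, so their counts do not draw on the same reads.

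Gata1, the transcription factor on which red cell and megakaryocyte development depends, had 30, 24 and 49 counts in BCAA-free libraries 1 to 3, against 29, 13, 19, 19 and 1 counts in AA libraries 1 to 5. On the CPM scale this was 2.01, 1.30 and 1.56 in the BCAA-free libraries and 0.738, 0.737, 0.754, 1.14 and 0.0604 in the AA libraries. The groups did not overlap, and AA library 5 was far below the other AA libraries. The mean was 1.62 ± 0.360 CPM in the BCAA-free group and 0.686 ± 0.389 CPM in the AA group (SD, n = 3 and 5), and the log2 fold change of 1.23 had an SE of 0.68 and an adjusted p of 0.453 in edgeR. An exact permutation test of log2 CPM on this gene alone gave a two-sided p of 0.0357, the smallest that 3 libraries against 5 allow. Any groups without overlap give this value, so it adds nothing to the separation above. Of all tested genes, 4.15% separated with the BCAA-free group higher and 4.68% with it lower. The same test was run on each of the 10 genes and reached this value for Car1, Gata1 and Epor, and lay between 0.107 and 1.00 for the other seven.

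Klf1, which binds CACCC sequences and is needed for adult beta globin expression, had 17, 12 and 61 counts in BCAA-free libraries 1 to 3, against 15, 0, 10, 13 and 12 counts in AA libraries 1 to 5. This was 1.14, 0.649 and 1.94 CPM in the BCAA-free libraries and 0.382, 0, 0.397, 0.779 and 0.725 CPM in the AA libraries. BCAA-free libraries 1 and 3 lay above all AA libraries and library 2 lay among them. The 0 in AA library 2 allows a level of up to 0.170 CPM, taking 3 counts as the limit. The mean was 1.24 ± 0.651 CPM in the BCAA-free group and 0.457 ± 0.314 CPM in the AA group (SD, n = 3 and 5). The log2 fold change was 1.46 with an SE of 0.81 and an adjusted p of 0.450 in edgeR. Klf1 was over the filter's limit of 0.556 CPM in 3 of 3 BCAA-free libraries and in 2 of 5 AA libraries, so it entered the test largely through the group where it was high.

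Epor, the receptor for erythropoietin, had 6, 5 and 18 counts in BCAA-free libraries 1 to 3, against 6, 0, 0, 0 and 2 counts in AA libraries 1 to 5. As CPM the values were 0.402, 0.271 and 0.572 in the BCAA-free libraries and 0.153, 0, 0, 0 and 0.121 in the AA libraries, with no overlap. The zeros allow up to 0.170, 0.119 and 0.180 CPM in AA libraries 2, 3 and 4, so no fold change is given for so few counts. Epor was over the filter's limit in 1 of 3 BCAA-free libraries and in 0 of 5 AA libraries, and was left out of the main test. When no filter was used, edgeR called 0.352% of genes higher and gave Epor an unadjusted p of 0.0716 and an adjusted p of 0.446, and the exact permutation p was 0.0357 as for Gata1. Genes of its signalling path were far more abundant: Ptpn6, a phosphatase that dampens the receptor, averaged 351 ± 40.8 CPM in the BCAA-free group and 347 ± 17.8 CPM in the AA group (SD, n = 3 and 5; edgeR adjusted p = 0.956). Of the 14 tested genes of that path edgeR called none, where it called 0.756% of all tested genes.

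Alas2, the erythroid form of the first enzyme of haem synthesis, had 2.75, 0.379 and 2.45 CPM in BCAA-free libraries 1 to 3, against 1.25, 1.36, 1.63, 1.80 and 0.967 CPM in AA libraries 1 to 5. Both the highest and the lowest library of the 8 were BCAA-free ones. The mean was 1.86 ± 1.29 CPM in the BCAA-free group and 1.40 ± 0.325 CPM in the AA group (SD, n = 3 and 5). The log2 fold change was 0.41 with an SE of 0.59 and an adjusted p of 0.811 in edgeR, so no difference could be shown. Its housekeeping counterpart Alas1, the form used outside the red cell lineage, averaged 627 ± 29.1 CPM in the BCAA-free group and 690 ± 26.2 CPM in the AA group (SD, n = 3 and 5; edgeR adjusted p = 0.546).

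Hba-a1, 1 of 2 adult alpha globin genes, had 42, 15 and 521 counts in BCAA-free libraries 1 to 3, against 129, 102, 22, 48 and 73 counts in AA libraries 1 to 5. This was 2.81, 0.812 and 16.6 CPM in the BCAA-free libraries and 3.28, 5.78, 0.873, 2.88 and 4.41 CPM in the AA libraries. The BCAA-free group held both the highest and the lowest of the 8 values, and its mean of 6.73 ± 8.58 CPM, against 3.45 ± 1.83 CPM in the AA group (SD, n = 3 and 5), rests on library 3. The log2 fold change was 1.00 with an SE of 0.88 and an adjusted p of 0.677 in edgeR, and without BCAA-free library 3 it was -0.93 with an adjusted p of 0.639. No direction can therefore be given for this gene.

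Hbb-bs, an adult beta globin gene, had 39, 31 and 334 counts in BCAA-free libraries 1 to 3, against 74, 43, 10, 55 and 7 counts in AA libraries 1 to 5. As CPM the values were 2.61, 1.68 and 10.6 in the BCAA-free libraries and 1.88, 2.44, 0.397, 3.30 and 0.423 in the AA libraries. BCAA-free library 3 was again far above the rest, and the other two lay within the range of the AA group. The mean was 4.97 ± 4.91 CPM in the BCAA-free group and 1.69 ± 1.27 CPM in the AA group (SD, n = 3 and 5). The log2 fold change was 1.58 with an SE of 0.71 and an adjusted p of 0.358 in edgeR, and it was 0.35 with an adjusted p of 0.915 without BCAA-free library 3.

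The globin counts are uncertain between near-identical copies. Of the 38-base stretches in the annotated Hba-a1 transcripts, 463 of 662 (69.9%) also occur in Hba-a2, and the coding sequences of 426 bases differ by C381T, counted from 1 at the start codon with the Hba-a1 base first. The end of both coding sequences, bases 369 to 426, is shown with that base in capitals.
Hba-a1: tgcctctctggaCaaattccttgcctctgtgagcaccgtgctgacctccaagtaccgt
Hba-a2: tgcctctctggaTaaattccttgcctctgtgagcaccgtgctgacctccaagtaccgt
For Hbb-bs, 58.2% of the stretches also occur in Hbb-bt, whose coding sequence differs by C417T. Hba-a2 had 68, 20 and 296 counts in BCAA-free libraries 1 to 3, against 43, 29, 1, 5 and 13 in AA libraries 1 to 5. Its log2 fold change was 2.70 with an SE of 0.78 and an adjusted p of 0.147 in edgeR, and DESeq2 called it higher. Of the 38-base stretches in Hba-a2, 463 of 517 (89.6%) also occur in Hba-a1. The Hba-a2 values may thus depend on how shared reads were counted, which is not given. The table also holds a row for Hbb-b1, another beta globin entry, with 67, 51 and 401 counts in the BCAA-free libraries and 72, 78, 22, 48 and 53 in the AA libraries. The embryonic genes Hba-x, Hbb-y, Hbb-bh1 and Hbb-bh2 had 0 counts in all 8 libraries.
The sum of Hba-a1, Hba-a2, Hbb-bs and Hbb-b1 does not depend on how reads were split among these rows. It can still depend on whether shared reads were dropped, counted repeatedly or assigned to Hbb-bt, which is not analysed here. This sum was 14.5, 6.33 and 49.3 CPM in BCAA-free libraries 1 to 3, against 8.09, 14.3, 2.18, 9.35 and 8.82 CPM in AA libraries 1 to 5. BCAA-free library 2 lay within the AA range, library 1 just above its top and library 3 far above it.

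Slc4a1, the anion exchanger of the red cell membrane, had 3.22, 0.271 and 5.21 CPM in BCAA-free libraries 1 to 3, against 0.967, 2.38, 0.159, 0.600 and 0.846 CPM in AA libraries 1 to 5. BCAA-free libraries 1 and 3 lay above all AA libraries and library 2, with 5 counts, lay near the lowest of them. The mean was 2.90 ± 2.49 CPM in the BCAA-free group and 0.991 ± 0.837 CPM in the AA group (SD, n = 3 and 5). The log2 fold change was 1.57 with an SE of 0.78 and an adjusted p of 0.400 in edgeR, and it was 0.81 without BCAA-free library 3. Ermap, a membrane protein of the erythroid lineage, had 5.83, 2.06 and 5.15 CPM in BCAA-free libraries 1 to 3, against 1.76, 2.72, 1.63, 0.360 and 3.02 CPM in AA libraries 1 to 5. BCAA-free libraries 1 and 3 were again above the AA group and library 2 within it. The mean was 4.35 ± 2.01 CPM in the BCAA-free group and 1.90 ± 1.05 CPM in the AA group (SD, n = 3 and 5), and the log2 fold change was 1.20 with an SE of 0.52 and an adjusted p of 0.325 in edgeR.

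**Figure D3:**
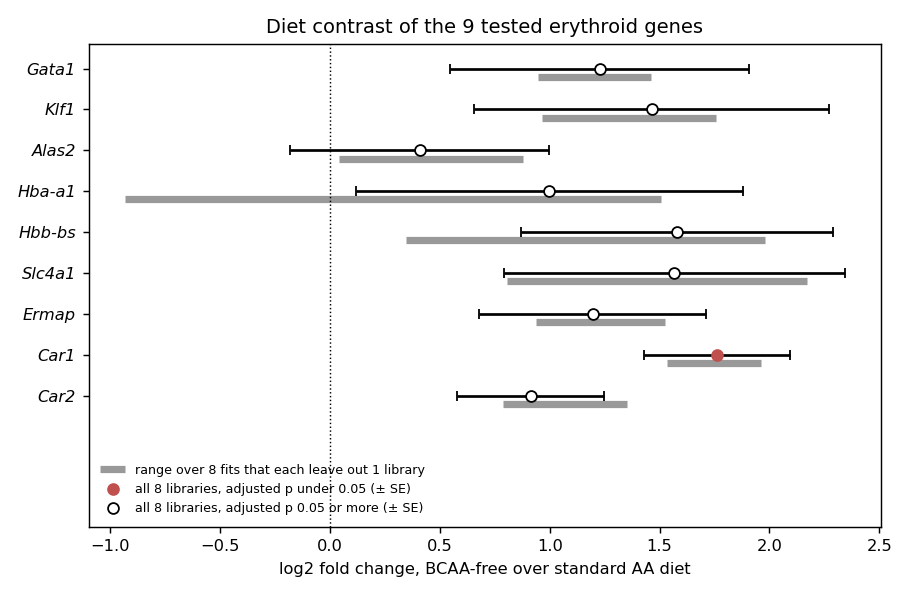
log2 fold change of BCAA-free over AA for the 9 tested erythroid genes in edgeR, with 1 SE as error bars; the filled point has an adjusted p under 0.05. Grey bars span the fits that each leave out 1 library. Car1 alone is filled, and the grey bar of Hba-a1 crosses 0, reaching -0.93.

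The 10 genes did not vary as one across libraries. BCAA-free library 3 was highest for 7 of them and BCAA-free library 1 for the other three, Alas2, Ermap and Gata1. AA library 2 was lowest for 4 genes, among them Epor, where AA libraries 3 and 4 also had 0 counts. BCAA-free library 2 was the lowest of all 8 libraries for Alas2 and Hba-a1. Library 2 of the BCAA-free group therefore separated the genes: relative to the mean of each gene on the log2 scale it stood at 1.13 for Car1, 0.65 for Car2 and 0.60 for Gata1, and at -1.66 for Alas2, -1.83 for Hba-a1 and -1.65 for Slc4a1. The level in the lowest BCAA-free library exceeded the AA median in 6 of the 10 genes.

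**Figure D4:**
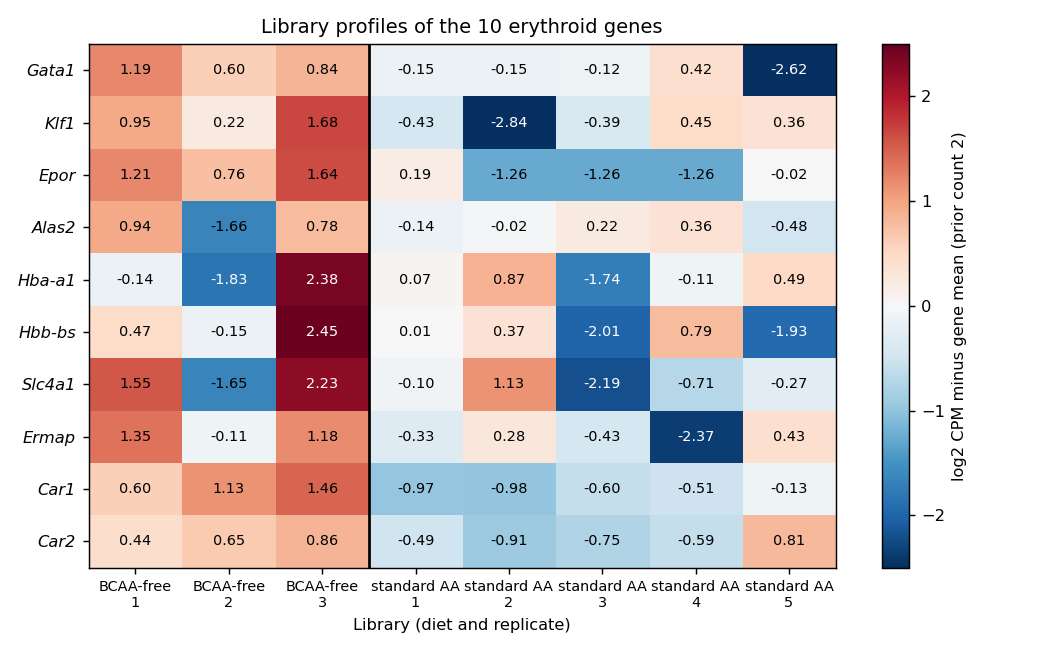
Each cell is the log2 CPM of a gene in a library minus the mean of that gene over the 8 libraries, with 3 BCAA-free libraries left of the line and 5 AA libraries right of it. BCAA-free library 3 is positive for all 10 genes, and BCAA-free library 2 ranges from -1.83 (Hba-a1) to 1.13 (Car1).

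Likeness of profiles was measured as the root mean square difference between 2 genes in these centred log2 values over the 8 libraries, given here as a description. Among pairs of the 10 genes, Car1 and Car2 were closest at 0.47, followed by Hba-a1 and Slc4a1 at 0.72 and by Car1 and Klf1 at 0.86. Over all tested genes the nearest to Car1 were Csad, Nynrin and Zfp385a (0.40 to 0.44, where the median of all genes was 0.93), and the nearest to Car2 were Csad, Fcna and Flt3. The nearest to Hba-a1 were Kel, a blood group protein of the red cell membrane, then Slc4a1 and Hbb-b1 (0.59 to 0.74, median 1.30). Slc4a1 was nearest to Hba-a1, Hbb-b1 and Pcdhga1, and Hbb-bs to Fam222a, Marco and Hbb-b1. Gata1 was nearest to Pir, Cnih2 and Sdsl, Klf1 to Pkdcc, Crip1 and Snora68, Ermap to Acy3, Aqp11 and Hdhd5, and Alas2 to Gm9442, Gm6579 and Mrm2. None of these last 4 sets includes another gene of the 10.

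Other genes of red cell formation were followed in 8 lists covering transcription factors, erythropoietin signalling, iron, haem, globins, membrane and skeleton, carbonic anhydrases, and late erythroid enzymes. Apart from the 10 genes, 121 of their genes were in the table and 96 passed the filter. None of the 96 was called in either direction by edgeR at an adjusted p under 0.05, where 0.756% of all tested genes were. Limma-voom also called none of them. DESeq2, which filters differently, gave 98 of the 121 genes an adjusted p and called 5 higher, Hba-a2, Blvrb, Flvcr1, Hmox1 and Ldb1, and 2 lower, Cd44 and Lmo2, where it called 0.963% of all genes higher and 1.85% lower. At an unadjusted p under 0.05, 13 of the 96 (13.5%) were higher in the BCAA-free group, against 6.21% of all tested genes, and 2 were lower, against 7.26%. A positive log2 fold change was found in 62 of the 96 (64.6%), and their median log2 fold change was 0.08, against 0.015 over all tested genes. The groups did not overlap with the BCAA-free group higher in 9 (9.38%), against 4.15% of all tested genes, and lower in 3, where 4.68% of all tested genes were.

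Among the transcription factors, Myb and Lmo2 had the highest levels. Lmo2, a bridge protein of the GATA1 complex, averaged 503.7 ± 6.12 CPM in the BCAA-free group and 628 ± 18.6 CPM in the AA group (SD, n = 3 and 5), with no overlap and an edgeR adjusted p of 0.128. Tal1 and Ldb1, partners in the same complex, were picked out after their values were seen. Tal1 lay between 3.18 and 3.95 CPM in the BCAA-free libraries and between 1.27 and 2.10 CPM in the AA libraries, with a log2 fold change of 1.21 and an edgeR adjusted p of 0.190. Ldb1 lay between 87.6 and 116 CPM in the BCAA-free libraries and between 66.3 and 81.3 CPM in the AA libraries, with an edgeR adjusted p of 0.118. These members of the complex thus had fold changes of both signs. None passed the threshold in edgeR, while DESeq2 called Ldb1 higher and Lmo2 lower.

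In the haem and iron lists edgeR called none of 13 and 15 tested genes, where it called 0.756% of all tested genes. The ferritin genes Fth1 and Ftl1, which encode the iron store, had log2 fold changes of 0.12 and 0.18 with edgeR adjusted p-values of 0.675 and 0.636. Flvcr1, a haem exporter, and Hmox1, which breaks haem down, were picked out after their values were seen and were higher in every BCAA-free library than in any AA library. Their log2 fold changes were 0.81 and 0.93 with edgeR adjusted p-values of 0.0862 and 0.128, and both were among the genes that DESeq2 called higher.

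In the membrane list edgeR called none of 17 other tested genes, where it called 0.756% of all tested genes. The median log2 fold change of the 17 was 0.53. Several, such as the blood group gene Kel, were near the filter's limit. The most abundant, Cd47 and Cd44, are surface proteins of many blood cells. Cd44 averaged 296 ± 29.2 CPM in the BCAA-free group and 391 ± 31.9 CPM in the AA group (SD, n = 3 and 5; edgeR adjusted p = 0.0921), the groups did not overlap, and DESeq2 called it lower. Among the other carbonic anhydrases, Car9 and Car12 had the highest levels and log2 fold changes of -0.37 and 0.01 (edgeR adjusted p = 0.494 and 0.985).

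**Figure D5:**
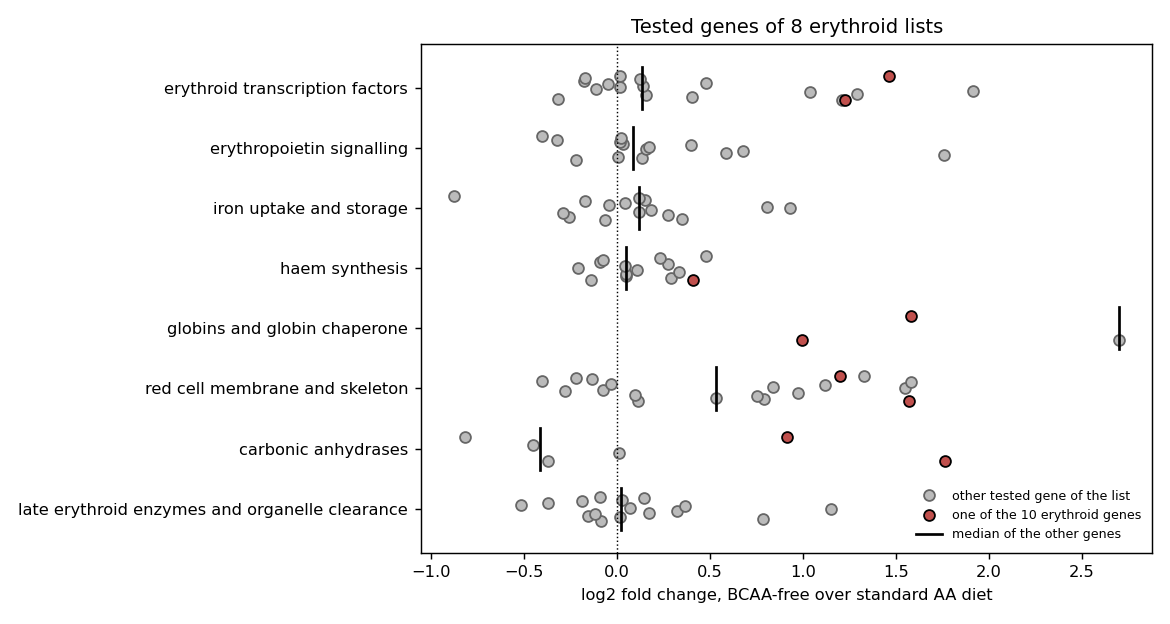
log2 fold change of BCAA-free over AA for the tested genes of the 8 erythroid lists, 1 point per gene, with the 10 erythroid genes that were tested in red and the median of the other genes of each list as a black line. In the membrane list that median is 0.53, and in the haem list 0.05.

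Markers of other cells that share some of these genes were summed in each library. The megakaryocyte list, of which Gp6 had 0 counts in all libraries, summed to between 18.2 and 38.8 CPM in the BCAA-free group and between 12.9 and 22.6 CPM in the AA group, with 4 of 12 genes tested and none called by edgeR. The mast cell and basophil list summed to between 113 and 179 CPM in the BCAA-free group and between 149 and 204 CPM in the AA group, with none of 6 tested genes called by edgeR. Over all tested genes, edgeR called 0.756% in either direction. The eosinophil list was lower in every BCAA-free library, at 42.1 to 51.6 CPM against 68.0 to 99.5 CPM in the AA group. That sum consists largely of Siglecf, an eosinophil surface lectin, which fell to 34.4 ± 3.72 CPM in the BCAA-free group, against 70.5 ± 13.7 CPM in the AA group (SD, n = 3 and 5; edgeR adjusted p = 0.00535). Without Siglecf the list summed to 8.98 to 16.9 CPM in the BCAA-free group and 7.99 to 13.4 CPM in the AA group, which overlapped, and 3 of the 6 tested genes of the whole list had a positive log2 fold change. The part of these lists in the values of Gata1 was not tested.

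Lists of genes known as markers of other marrow cells, and of the leukaemia, also differed between libraries. In sorted GFP+ cells these values do not show whether host cells or leukaemia cells made the RNA. The 12 markers of the macrophages at the centre of erythroblast islands summed to between 236 and 337 CPM in the BCAA-free group and between 310 and 407 CPM in the AA group. Most of that sum was Vcam1 and Adgre1, given below. At an unadjusted edgeR p under 0.05, 8 of the 12 were higher, against 6.21% of all tested genes, and 2 lower, against 7.26%. The groups separated with the BCAA-free group higher in 3, against 4.15%, and lower in 1, against 4.68%. A positive log2 fold change was found in 10 of the 12, against 52.6% of all tested genes, and edgeR called 1 higher, against 0.217%. That gene was Cd163, the haemoglobin scavenger receptor, at 12.3 ± 4.74 CPM in the BCAA-free group and 3.85 ± 1.95 CPM in the AA group (SD, n = 3 and 5; edgeR adjusted p = 0.0450). Its groups overlapped, with 6.80 CPM in BCAA-free library 3 and 7.07 CPM in AA library 5. The most abundant of the list, Vcam1 and Adgre1, had lower means: Vcam1, an adhesion protein, averaged 157 ± 48.6 CPM in the BCAA-free group and 221 ± 11.5 CPM in the AA group without overlap (edgeR adjusted p = 0.182), and Adgre1, the F4/80 antigen, averaged 73.9 ± 18.3 CPM in the BCAA-free group and 115 ± 35.4 CPM in the AA group (edgeR adjusted p = 0.332). Of 9 tested B cell markers all had a positive log2 fold change, against 52.6% of all tested genes, and edgeR called 3 higher, against 0.217%. Cd79b and Cd79a, the signalling chains of the B cell receptor, had log2 fold changes of 1.34 and 3.12 with edgeR adjusted p-values of 0.00852 and 0.0305. The list summed to between 152 and 374 CPM in the BCAA-free group and between 104 and 354 CPM in the AA group. Most of that sum was Ighm, picked out after its values were seen. Ighm averaged 182 ± 55.3 CPM in the BCAA-free group and 150 ± 108 CPM in the AA group (SD, n = 3 and 5). Its edgeR adjusted p was 0.875, and its highest value was 341 CPM in AA library 3. Of the 9 tested markers, 4 separated with the BCAA-free group higher, against 4.15% of all tested genes, and 0 with it lower, against 4.68%. The T cell list summed to 13.3, 39.5 and 6.39 CPM in BCAA-free libraries 1 to 3, against 3.86 to 11.4 CPM in the AA group. EdgeR called none of its 8 tested genes, where it called 0.756% of all tested genes. Library 2 of the BCAA-free group was highest for the B and T cell lists and low for the globins, and library 3 was lowest of that group for both lists and highest for the globins. The neutrophil list summed to between 1589 and 6363 CPM in the BCAA-free group and between 789 and 6480 CPM in the AA group. The list of MLL-AF9 leukaemia markers summed to between 11782 and 14549 CPM in the BCAA-free group and between 14737 and 18351 CPM in the AA group, without overlap. EdgeR called none of the 15, where it called 0.756% of all tested genes. A positive log2 fold change was found in 3 of the 15, against 52.6%. At an unadjusted edgeR p under 0.05, 3 were lower, against 7.26%, and 1 higher, against 6.21%. Mpo was lower in every BCAA-free library than in any AA library (edgeR adjusted p = 0.0605). The part of these differences in the levels of the erythroid genes was not tested.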

How the data were processed

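Raw counts per gene were deposited by the authors as 1 table of 27179 Entrez gene rows over 8 libraries, made from paired reads of 38 bases of poly(A) RNA per the labels' protocols. The submitters' processing notes name Cell Ranger, featureCounts and the mm10 build, without roles. Whether counting used strand, and how reads matching several copies were treated, is not given in the sources used here. Rows with no symbol (1904, holding 1.71% to 4.43% of counts) stayed in the library totals and tests.

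Counts were tested with edgeR 4.0.16 in R 4.3.3 (TMM, filterByExpr with a minimum count of 10 and total of 15, robust quasi-likelihood F-test, BCAA-free over AA, Benjamini-Hochberg over 13364 genes, threshold 0.05). SEs were computed from the log2 fold change and F. The filter required 0.556 CPM in at least 3 libraries, and the common biological coefficient of variation was 23.0%. Levels per kb use GENCODE M21 exon lengths, available for 11947 of the tested genes. Profiles use log2 CPM with a prior count of 2. Single genes were compared by exact permutation over 56 splits. The test was checked on simulated counts. DESeq2 1.42.0, limma 3.58.1 (voom), other scalings, no filter, a replicate block and leaving out each library were alternatives, and summing globin copies was added after seeing the data.

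The 10 genes, the 16 lists (221 entries) and the promoter motifs were chosen with earlier results of these data known. The genes named are the 10, the called genes of each list (up to 3), its 2 most abundant other genes and the 3 nearest profiles, and the text says where others were picked later. No 2 libraries of the same group agreed within sampling noise. Limits given for zeros take 3 counts and cover counting error only. P-values measure the spread between these libraries. Some genes that the rule would name are not reported here.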

Additional observations from a re-analysis of the deposited data

Results flagged for a closer look

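Car2 in AA library 5 stood apart from its group. It had 14.6 CPM there, and the next highest AA library had 5.85 CPM, a gap of 0.854 of the whole range of the AA group, over the 95% limit of 0.71 for 5 samples. The 10 erythroid genes were each looked at this way in the AA group, and chance alone flags about 1 group in 20.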

How the results depend on the processing

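Over all tested genes, 29 were called higher and 72 lower, and these counts moved with the processing: 69 and 168 with no filter, 131 and 251 with DESeq2, 15 higher with limma-voom, and 3 to 78 higher and 29 to 73 lower when single libraries were left out. Other scalings, a non-robust fit and summing globin copies (added after seeing the data) gave counts within 1.5 times. Of the erythroid genes 1 was called higher, with a range of 0 to 2 over fits without 1 library, and none lower under any alternative. Of the single-gene results under these alternatives, 157 kept direction and side of the threshold, 5 were Car1 losing its call (once with the block below), 1 was Car2 gaining one and 1 was Hba-a1 turning to -0.93; the cause was not tested. Same-numbered libraries did not deviate together (correlations of -0.0808, -0.0518 and -0.298). The labels do not state whether replicate numbers pair the libraries, and these few correlations cannot settle it. With a replicate block over the 6 libraries numbered 1 to 3, edgeR called 0 genes higher, 0 lower and 0 of the erythroid genes (358 higher and 546 lower, and 3 of the erythroid genes, at an unadjusted p under 0.05), and Car1 had a log2 fold change of 1.96 and an adjusted p of 0.232. Most erythroid genes had under 100 counts in most libraries, which limits what could be seen.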

Other observations

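The split of alpha globin counts between the 2 copies was looked at after its values were seen. Hba-a1 held 38.2%, 42.9% and 63.8% of the Hba-a1 plus Hba-a2 counts in BCAA-free libraries 1 to 3, against 75.0%, 77.9%, 95.7%, 90.6% and 84.9% in AA libraries 1 to 5. The groups did not overlap, with a mean of 48.3 ± 13.6% in the BCAA-free group and 84.8 ± 8.59% in the AA group (SD, n = 3 and 5). An exact permutation test gave a two-sided p of 0.0357, the smallest this design allows. Any groups without overlap give this value, so it adds no support. Of the 38-base stretches in Hba-a2, 89.6% also occur in Hba-a1, and how reads matching both were counted is not given. The part of read assignment in this split was not tested. The fewest counts behind a share were 35 in BCAA-free library 2 (95% exact binomial interval 26.3% to 60.6%) and 23 in AA library 3 (78.1% to 99.9%), and these intervals cover counting error only. The share of Hbb-bs in the Hbb-bs plus Hbb-b1 counts averaged 40.01 ± 4.73% in the BCAA-free group and 36.5 ± 16.8% in the AA group, and the groups overlapped (exact permutation p = 0.821).

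Blvrb, a biliverdin reductase of red cells and other blood cells, was also picked out after its values were seen. It averaged 7.72 ± 1.97 CPM in the BCAA-free group and 3.47 ± 0.868 CPM in the AA group (SD, n = 3 and 5), without overlap, and had a log2 fold change of 1.15 with an adjusted p of 0.0837 in edgeR, and DESeq2 called it higher.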
